A study of Mus musculus with 8 samples.

Results

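The 8 genes described here, Srebf2, Hmgcs1, Idi1, Fdps, Fdft1, Sqle, Lss and Cyp51, code for enzymes of cholesterol synthesis and for the transcription factor that controls them. They were chosen by symbol, matched to Ensembl identifiers, and make up 8 of the 45706 genes counted by RNA-Seq, and all 8 were among the 14491 genes with enough counts to be tested. Crypts were prepared fresh from the small intestine (SI) and from the colon (COL) of 4 untreated wild-type C57BL/6N mice, labelled donor mouse 1, 2, 3 and 5. Mice 1 and 5 are female and mice 2 and 3 male, their age is not given in the labels, and each gave 1 SI and 1 COL library, so that there were 4 libraries per tissue. The question put to these 8 genes was whether their transcripts differed between SI and COL crypts of otherwise untreated animals.

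Cells make cholesterol from acetyl-CoA through the mevalonate pathway. Hmgcs1, Idi1 and Fdps act in the part of the pathway that builds isoprenoids, Fdft1 joins isoprenoids to squalene, and Sqle, Lss and Cyp51 turn squalene into sterols. SREBP2, the product of Srebf2, is held in the endoplasmic reticulum by sterols, and when these are low it is cut and enters the nucleus, where it binds sterol regulatory elements in promoters of these genes, its own included. The intestinal epithelium both takes up dietary and biliary cholesterol, mainly in the SI, and makes cholesterol itself.

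Transcripts of 7 of the 8 genes were more abundant in COL than in SI crypts, those of Fdps 5.13 times, of Lss 4.83 times, of Cyp51 3.82 times, of Fdft1 3.54 times, of Srebf2 3.11 times, of Sqle 2.57 times and of Hmgcs1 1.84 times, as fold changes from the edgeR fit. Levels are given as CPM, counts scaled by library sizes adjusted with TMM. Idi1 was the exception, at a fold of 2.01 that did not pass the test. No member passed it in the other direction. The test was edgeR's quasi-likelihood test, with p-values adjusted over all tested genes by Benjamini and Hochberg and a threshold of 0.05. By it 12.9% of all genes were higher in COL (1863 of 14491), 15.5% were higher in SI, and 28.4% differed in either direction. The log2 fold changes of SI over COL lay below 0 for all 8 members, with a median of -1.73, whereas they lay below 0 for 53.4% of all genes, with a median of -0.09. In bulk crypt RNA, fewer cells of a type and less RNA per cell cannot be told apart.

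The libraries held 21156329 to 30368676 counts in SI and 15969428 to 32908060 in COL, and the members took 0.0137% to 0.0234% of them in SI and 0.0446% to 0.110% in COL. Mitochondrial genes took 4.84% to 7.35% of the counts in the SI libraries of mice 1 and 5 and 4.83% to 6.94% in the COL libraries of mice 3 and 5, but 22.7% to 28.3% and 26.9% to 50.8% in the other SI and COL libraries, with the highest share in COL of mouse 2. The tissue labels were checked by markers, given as the summed CPM of each list. All 7 SI enterocyte genes were higher in SI (48764 to 118619 CPM against 13.002 to 144), 4 of 5 colon epithelium genes were higher in COL (688 to 1434 CPM in SI against 12358 to 39399), and 3 of 4 Paneth cell genes were higher in SI (373 to 1799 CPM against 17.7 to 82.1). Of 5 general epithelial genes, Vil1 and Krt20 were higher in SI (10923 to 22518 CPM for the list against 3160 to 8704). Enterocyte transcripts were thus abundant in the SI libraries. The SI library of mouse 1 had the highest sum for enterocytes and the lowest for 4 stem cell genes (12.3 CPM, against 188 to 290 in the other SI libraries and 27.0 to 34.5 in COL, with Olfm4 alone of the 4 higher in SI) and for 7 proliferation genes (93.9 CPM, against 277 to 472 in the other SI libraries and 325 to 580 in COL). No proliferation gene passed edgeR's test between the tissues, while 1 had an unadjusted p below 0.05, 1 passed in DESeq2 and 0 passed in limma-voom. Of 7 tested leukocyte genes, Cd3e, Cd8a, Gzma and Cd74 were higher in SI (4277 to 13223 CPM for the list, mostly Cd74, against 25.7 to 191), whereas 6 stromal genes stayed at 3.61 to 11.4 CPM in SI and 5.56 to 16.6 in COL, with Pecam1 higher in COL. The 3 tested smooth muscle genes summed to 2.24 to 10.9 CPM in SI and 6.92 to 8.63 in COL with none past edgeR's test, 1 at an unadjusted p below 0.05 and 1 past each of DESeq2 and limma-voom. The part of enterocyte, leukocyte or mitochondrial RNA in the differences described below was not tested.

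Srebf2, the regulator of the set (ENSMUSG00000022463, GRCm38 chromosome 15, 82147181 to 82205379, plus strand), was counted at 17.5, 31.1, 35.8 and 33.0 CPM in the SI libraries of mice 1, 2, 3 and 5. In the COL libraries of the same mice it was counted at 90.5, 65.3, 117 and 91.3 CPM. The tissues did not overlap, the lowest values being those of SI from mouse 1 and COL from mouse 2. Means were 29.3 ± 8.10 CPM in SI and 91.1 ± 21.3 in COL (SD, n = 4), a log2 fold change of -1.63 ± 0.30 (SE, adjusted p = 0.00190 by edgeR's quasi-likelihood test, Benjamini-Hochberg). None of the 50-base stretches of its longest transcript occurs in a transcript of another gene. Srebf1, its paralog, which mainly drives fatty acid synthesis, was at 51.9 ± 24.2 CPM in SI and 39.5 ± 16.1 in COL and did not pass the test (log2 fold change 0.39 ± 0.38, edgeR adjusted p = 0.475). The difference between the paralogs' fold changes was not tested.

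Promoters are shown because sterol regulatory elements are the sites that SREBP2 is known to bind. Whether such sites bear on the difference between the tissues was not tested. RefSeq promoter windows (GRCm38.p6, 250 bases before to 50 bases after the transcription start) matched 5 of the 8 members: Srebf2, Hmgcs1, Idi1, Lss and Cyp51. They were searched on both strands for TCACNCCAC, the core of the sterol regulatory element, for CCAAT, the box of the factor NF-Y, and for GGGCGG, the GC box of Sp1. The 250 bases before the start are printed for the 3 windows that hold the first motif with at most 1 mismatch, and capitals mark those matches and each CCAAT on either strand.
Hmgcs1, chr13:119690101-119690350, plus strand: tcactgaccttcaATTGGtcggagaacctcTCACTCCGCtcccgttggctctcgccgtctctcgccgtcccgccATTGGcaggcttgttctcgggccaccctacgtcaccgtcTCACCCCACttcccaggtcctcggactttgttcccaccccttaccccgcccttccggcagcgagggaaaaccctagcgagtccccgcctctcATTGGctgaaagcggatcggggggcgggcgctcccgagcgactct
Srebf2, chr15:82147019-82147268, plus strand: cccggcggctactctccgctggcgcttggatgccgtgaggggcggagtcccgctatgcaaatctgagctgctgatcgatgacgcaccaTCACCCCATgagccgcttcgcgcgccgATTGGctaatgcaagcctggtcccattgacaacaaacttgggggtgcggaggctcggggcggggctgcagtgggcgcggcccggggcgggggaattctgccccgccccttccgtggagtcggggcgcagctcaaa
Cyp51, chr5:4104698-4104947, minus strand: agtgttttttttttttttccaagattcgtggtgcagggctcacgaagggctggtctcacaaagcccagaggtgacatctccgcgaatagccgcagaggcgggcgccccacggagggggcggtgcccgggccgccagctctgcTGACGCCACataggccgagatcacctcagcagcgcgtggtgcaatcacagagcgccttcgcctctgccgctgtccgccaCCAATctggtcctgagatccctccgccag

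Hmgcs1 alone held TCACNCCAC without a mismatch, starting 137 bases before the transcription start, and 1.24% of the 32851 RefSeq promoter windows of the same length hold it (408 windows). With 1 mismatch allowed, a setting added after the exact matches were seen, a further match started 220 bases before the start in Hmgcs1, and single matches started 162 bases before the start in Srebf2 and 108 bases before it in Cyp51. This looser search includes the exact matches and finds a match in 24.2% of all windows. All 5 windows held CCAAT, which 37.4% of all windows hold, with 4 matches in Hmgcs1, 2 in Idi1 and 1 in each of Lss, Cyp51 and Srebf2. All 5 also held GGGCGG, found in 35.7% of all windows, with 5 matches in Srebf2, 3 in Hmgcs1, 2 in Lss and 1 in each of Idi1 and Cyp51. A match describes the letters of the window and is not a measured binding site.

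Hmgcs1, which joins acetyl-CoA and acetoacetyl-CoA to HMG-CoA at the head of the pathway, had the highest level of the 8 genes and the smallest fold change (ENSMUSG00000093930, chromosome 13, 119690379 to 119708260, plus strand). Its levels in SI were 104, 140, 96.6 and 138 CPM in mice 1, 2, 3 and 5, and in COL 233, 174, 247 and 225 CPM. The tissues did not overlap, but mouse 2 differed little. Means were 120 ± 22.4 CPM in SI and 220 ± 31.4 in COL (SD, n = 4), a log2 fold change of -0.88 ± 0.28 (SE) with adjusted p = 0.0348 in edgeR's quasi-likelihood test. This call was not firm. The adjusted p was 0.0737 with the donor mouse as a block, and in edgeR fits leaving out 1 library it was 0.0532 to 0.115 for 7 of the 8 libraries, the exception being COL of mouse 2. Of the 50-base stretches of Hmgcs1, 13.6% occur in a gene model on the other strand, Gm48342, which overlaps 557 of its exonic bases.

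Idi1, the isomerase that interconverts the isoprene building blocks, was at 4.48, 7.36, 9.06 and 5.67 CPM in the SI libraries of mice 1, 2, 3 and 5 (ENSMUSG00000058258, chromosome 13, 8885501 to 8892451, plus strand). Its COL libraries were at 10.7, 7.57, 16.8 and 18.2 CPM. The tissues overlapped, since COL of mouse 2 lay below SI of mouse 3. Means were 6.64 ± 2.00 CPM in SI and 13.3 ± 5.04 in COL (SD, n = 4), with a log2 fold change of -1.01 ± 0.36 (SE) and adjusted p = 0.0597 in edgeR's quasi-likelihood test. Without COL of mouse 2 the log2 fold change was -1.19 and the edgeR adjusted p 0.0179, whereas leaving out any other library gave -1.18 to -0.81 and 0.0586 to 0.170. Idi1 passed with several other settings. The edgeR adjusted p was 0.00693 with library size alone, 0.0432 with RLE size factors, 0.0349 without mitochondrial genes and 0.0443 without a filter. DESeq2 gave 0.0196. Idi1 did not pass with limma-voom (0.0502), nor in edgeR with the donor mouse as a block (0.0762). Of the 50-base stretches of its longest transcript, 30.5% occur in transcripts of other genes, so that its counts are less certain than those of Srebf2.

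Fdps, farnesyl diphosphate synthase, had the lowest level of the members and the largest fold change (ENSMUSG00000059743, chromosome 3, 89093588 to 89101959, minus strand). It was at 1.04, 1.27, 1.01 and 1.19 CPM in SI of mice 1, 2, 3 and 5 and at 6.24, 5.65, 6.17 and 5.14 CPM in COL. The 4 libraries of each tissue lay close together, and the tissues were far apart. These levels rest on 23, 21, 20 and 26 reads in SI and on 213, 91, 231 and 246 in COL. Means were 1.13 ± 0.121 CPM in SI and 5.80 ± 0.511 in COL (SD, n = 4). The log2 fold change was -2.36 ± 0.37 (SE, adjusted p = 0.000725 by edgeR's quasi-likelihood test). Of its 50-base stretches 11.7% are shared with other transcripts, and a gene model on the same strand, Gm43738, overlaps 1124 of its exonic bases, so that reads it shares with other genes may be missing from these counts.

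Fdft1, squalene synthase, catalyses the first step that serves sterols alone (ENSMUSG00000021273, chromosome 14, 63145150 to 63179578, minus strand). SI libraries of mice 1, 2, 3 and 5 were at 17.1, 34.9, 33.9 and 30.2 CPM and COL libraries at 96.1, 60.2, 127 and 128 CPM. Every COL value lay above every SI value. The log2 fold change was -1.83 ± 0.33 (SE, adjusted p = 0.00180 by edgeR's quasi-likelihood test), with means of 29.0 ± 8.16 CPM in SI and 103 ± 31.9 in COL (SD, n = 4). Its exons overlap those of Ctsb on the other strand over 774 bases and 30.7% of its 50-base stretches occur in other transcripts. Whether counting used the strand is not given in the sources used here.

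Sqle, squalene epoxidase, a rate-limiting enzyme of the sterol branch, was the called member whose tissues overlapped (ENSMUSG00000022351, chromosome 15, 59315077 to 59331192, plus strand). It was at 22.5, 45.2, 27.2 and 27.8 CPM in SI of mice 1, 2, 3 and 5 and at 67.4, 40.6, 99.99 and 107 CPM in COL. Mouse 2 had the highest SI and the lowest COL value, and there COL lay below SI. Means were 30.7 ± 9.98 CPM in SI and 78.8 ± 30.8 in COL (SD, n = 4), a log2 fold change of -1.36 ± 0.35 (SE, adjusted p = 0.0134 by edgeR's quasi-likelihood test).

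Lss, lanosterol synthase, which closes the sterol rings, was at 6.96, 15.9, 11.4 and 9.09 CPM in SI of mice 1, 2, 3 and 5 (ENSMUSG00000033105, chromosome 10, 76531588 to 76557138, plus strand). In COL it was at 60.3, 30.6, 55.8 and 62.8 CPM. The tissues did not overlap, and mouse 2 again had the highest SI and the lowest COL value. The log2 fold change was -2.27 ± 0.34 (SE, adjusted p = 0.000481 by edgeR's quasi-likelihood test), with means of 10.9 ± 3.84 CPM in SI and 52.4 ± 14.8 in COL (SD, n = 4).

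Cyp51, the lanosterol demethylase, was at 14.7, 23.2, 23.1 and 30.5 CPM in SI of mice 1, 2, 3 and 5 and at 81.8, 57.0, 90.2 and 120 CPM in COL (ENSMUSG00000001467, chromosome 5, 4081145 to 4104746, minus strand). Every COL library lay above every SI library. Means were 22.9 ± 6.45 CPM in SI and 87.4 ± 26.1 in COL (SD, n = 4), a log2 fold change of -1.93 ± 0.32 (SE, adjusted p = 0.000887 by edgeR's quasi-likelihood test).

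**Figure D1:**
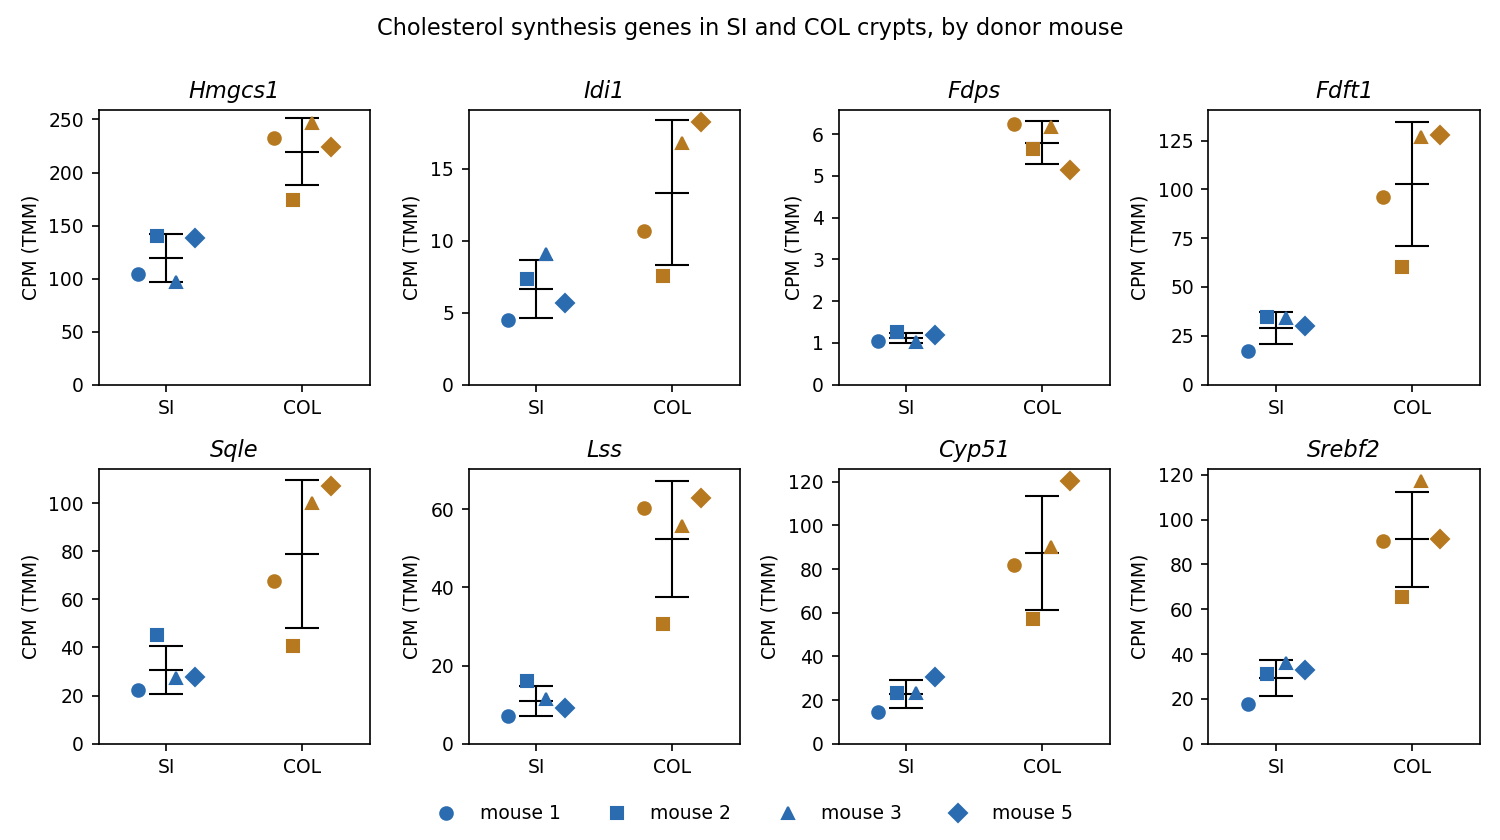
CPM of the 8 members in the 4 SI and 4 COL libraries, with the marker shape giving the donor mouse and bars giving mean ± SD (n = 4). SI and COL values do not overlap for 6 members, and overlap for Sqle and Idi1.

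The tissues did not overlap for 6 of the 8 members, each with COL above SI, against 15.7% of all genes that did not overlap with COL above SI and 17.8% with SI above COL. The 6 were Hmgcs1, Fdps, Fdft1, Lss, Cyp51 and Srebf2. COL of mouse 2 was the lowest COL library for 7 members, all but Fdps, and SI of mouse 1 was the lowest SI library for 6. COL of mouse 2 was also the library with the highest mitochondrial share and the fewest counts. The summed CPM of the 8 members ran from 189 to 299 in SI and from 441 to 760 in COL.

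Between genes, levels were compared as CPM per kilobase of exon. Exon lengths were not corrected for stretches shared with other genes, so the order is one of counted reads. Such stretches made up 11.7% in Fdps, 13.6% in Hmgcs1, 30.5% in Idi1 and 30.7% in Fdft1. For Lss the exons held 10787 bases and the longest transcript 6992. Hmgcs1 was highest in both tissues, at 26.0 ± 4.88 in SI and 47.8 ± 6.84 in COL (SD, n = 4). In SI it was followed by Fdft1 at 6.86 ± 1.93, Sqle at 5.53 ± 1.80, Cyp51 at 5.18 ± 1.46 and Srebf2 at 4.08 ± 1.13, neighbours whose SDs overlap. Idi1 at 1.89 ± 0.570, Lss at 1.01 ± 0.356 and Fdps at 0.268 ± 0.0288 were lower. In COL the order was Fdft1 at 24.3 ± 7.55, Cyp51 at 19.8 ± 5.92, Sqle at 14.2 ± 5.55, Srebf2 at 12.7 ± 2.96, Lss at 4.86 ± 1.37, Idi1 at 3.80 ± 1.44 and Fdps at 1.38 ± 0.121. Within the run from Fdft1 to Srebf2 neighbours again lay within their SDs, as did Lss and Idi1, which were in the opposite order in SI.

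**Figure D2:**
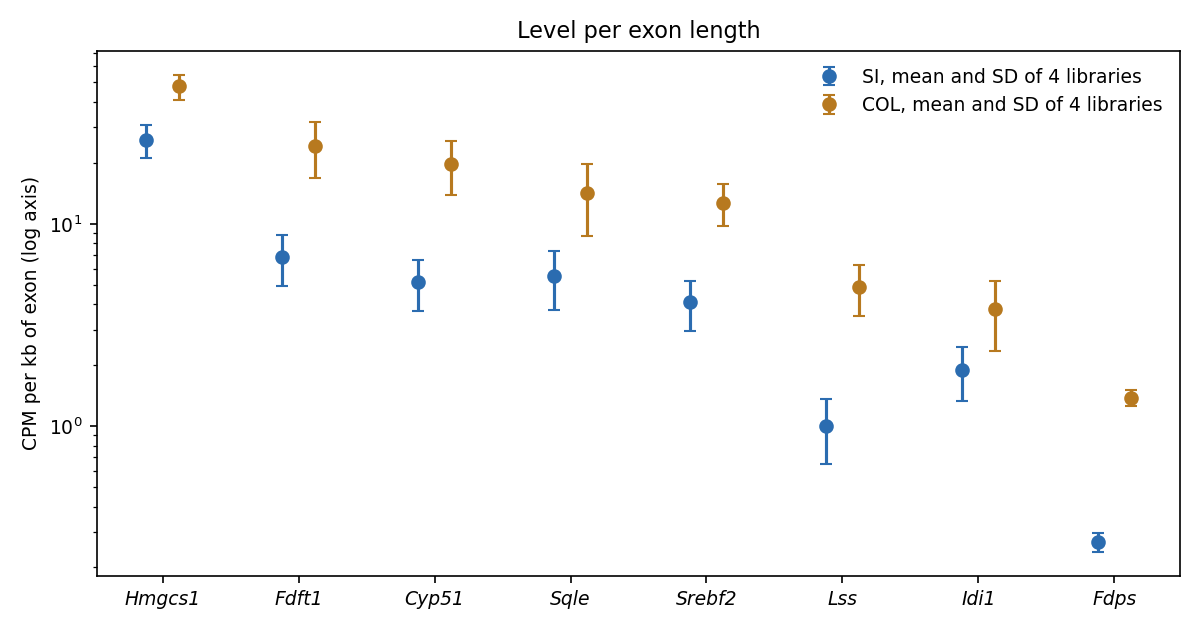
CPM per kilobase of exon of the 8 members on a log axis, SI in blue and COL in ochre, with points at the mean and bars of ± 1 SD (n = 4). Hmgcs1 is highest and Fdps lowest in both tissues, with lengths not corrected for stretches shared with other genes.

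Within mice, 31 of the 32 log2 differences of SI minus COL (8 genes in 4 mice) lay below 0, and Sqle in mouse 2, at 0.15, was the exception. Mouse 2 had the smallest difference for every member but Fdps. It was -0.32 for Hmgcs1, -0.04 for Idi1, -0.79 for Fdft1, -0.94 for Lss, -1.30 for Cyp51 and -1.07 for Srebf2, whereas in mouse 1 the same genes gave -1.16, -1.26, -2.49, -3.11, -2.48 and -2.37. Fdps varied least between mice, from -2.61 to -2.11. Members were correlated over the 8 libraries, though within a tissue Fdps, with 20 to 26 reads per SI library, followed most of the others only weakly. Whatever the number of genes, 4 mice remain 4 replicates.

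**Figure D3:**
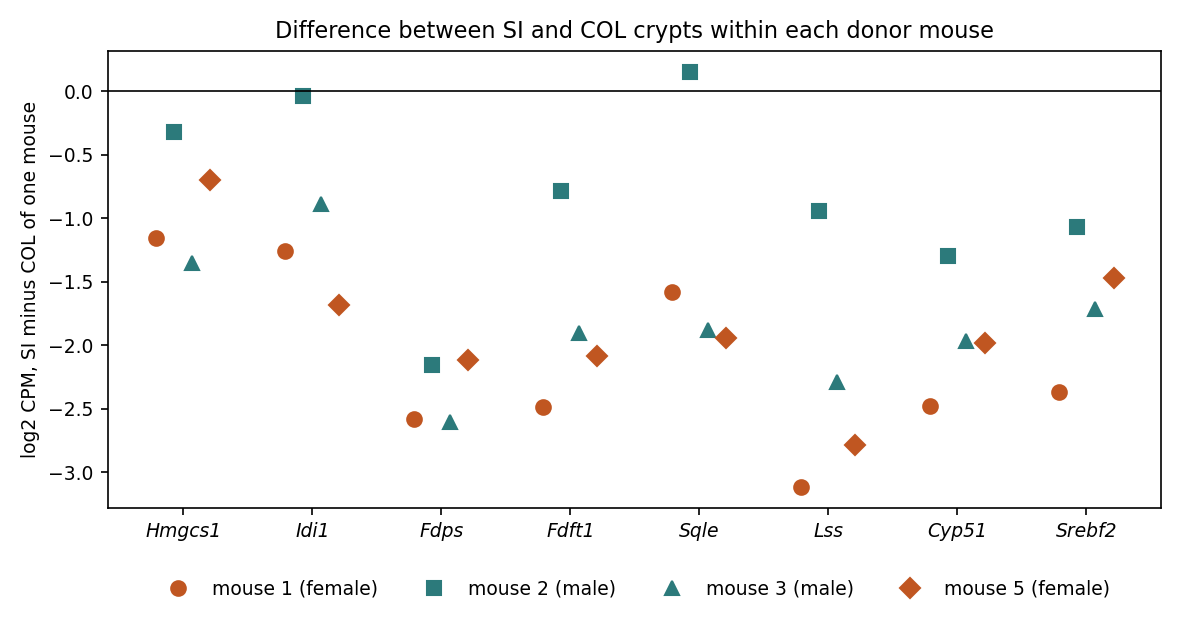
log2 CPM difference of SI minus COL within each of the 4 donor mice for the 8 members, females in orange and males in teal. All points but Sqle in mouse 2, at 0.15, lie below 0.

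The differences were also read within libraries of like mitochondrial share, sets formed after the shares were seen. In the libraries below 15% (SI of mice 1 and 5, COL of mice 3 and 5) the mean log2 difference of SI minus COL was -2.90 for Lss, -2.48 for Fdft1, -2.34 for Fdps, -2.30 for Cyp51, -2.11 for Srebf2, -2.05 for Sqle, -1.80 for Idi1 and -0.97 for Hmgcs1. In those above 15% (SI of mice 2 and 3, COL of mice 1 and 2) it was -2.39 for Fdps, -1.67 for Lss, -1.56 for Cyp51, -1.20 for Srebf2, -1.15 for Fdft1, -0.79 for Hmgcs1, -0.58 for Sqle and -0.14 for Idi1. The difference thus lay below 0 in both sets for every member, and Fdps and Hmgcs1 were nearly as large in either, whereas the others were nearer to 0 in the libraries of high mitochondrial share. EdgeR's test called all 8 members in the first set and 3, Fdps, Lss and Cyp51, in the second, with 2 libraries per tissue in each. Such counts depend on how many of all genes a set calls, so 8 and 3 were not compared. The number of all genes called in the second set is given in the closing section. That of the first set is not given here. Neither 8 nor 3 is therefore read as a result about the members. Whether the difference itself changes with the mitochondrial share was not tested. The SI libraries of the first set came from females and those of the second from males, so share and sex cannot be told apart there.

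Between females and males, the mean difference of SI minus COL on the log2 scale was -2.95 and -1.61 for Lss, -2.29 and -1.35 for Fdft1, -2.23 and -1.63 for Cyp51, -1.92 and -1.39 for Srebf2, -1.76 and -0.86 for Sqle, -1.47 and -0.47 for Idi1, -0.93 and -0.84 for Hmgcs1 and -2.35 and -2.38 for Fdps (2 mice per sex). The interaction of tissue and sex, fitted with edgeR with donor mouse as a block, was past the threshold for 0 of the 8 members, with adjusted p from 0.845 to 1, as it was for 0% of all genes. At an unadjusted p below 0.05 it was past for 0 members and for 6% of all genes, and limma-voom called 0 members. Lss came nearest, with a male minus female difference of 1.33 ± 0.63 (SE, unadjusted p = 0.0593 in edgeR). The test rests on 2 mice per sex. In SI both females had low mitochondrial shares (4.84% and 7.35%) and both males high ones (28.3% and 22.7%). Sex and mitochondrial share therefore cannot be told apart in SI. In COL each sex had a library of low and a library of high share.

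Other genes of the pathway were read from a list of 13 further enzymes, of which 12 were tested and Idi2 had at most 7 counts in any library. Of these, 4 were higher in COL, 1 was higher in SI and 7 did not pass edgeR's test, with a median log2 fold change of -0.73. With library size alone as the scaling 10 of the 12 were called and the median was -1.52, beside a median of -0.82 for all genes. The 4 stand in the early, isoprenoid part. Mvk, mevalonate kinase, was at 17.0 ± 3.77 CPM in SI and 43.6 ± 14.3 in COL, and Mvd, which decarboxylates mevalonate diphosphate, at 11.1 ± 4.10 and 53.0 ± 13.7 (SD, n = 4, edgeR adjusted p = 0.00570 and 0.000589). Pmvk, the kinase between them, had a log2 fold change of -1.10 (edgeR adjusted p = 0.0181) and Acat2, the cytosolic thiolase, of -0.998 (edgeR adjusted p = 0.0388). The edgeR adjusted p of Pmvk was 0.0514 to 0.0633 without SI of mouse 3, SI of mouse 5, COL of mouse 1 or COL of mouse 5. That of Acat2 was 0.0645 to 0.118 without SI of mouse 1 or 5 or COL of mouse 1, 3 or 5, and 0.0523 under a block for donor mouse. In the libraries of high mitochondrial share alone Acat2, Pmvk and Mvk lost their calls, with log2 fold changes of -0.46, -0.96 and -1.27 and edgeR adjusted p of 0.480, 0.202 and 0.0795. Sc5d, a late sterol desaturase, went the other way, at 205 ± 62.8 CPM in SI and 41.5 ± 13.2 in COL (SD, n = 4), a log2 fold change of 2.30 ± 0.35 (SE, edgeR adjusted p = 0.000534). The 7 others, Tm7sf2, Lbr, Msmo1, Nsdhl, Hsd17b7, Ebp and Dhcr7, act after Cyp51, and their log2 fold changes ran from -0.82 for Dhcr7 to 0.66 for Hsd17b7.

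Of 6 genes for SREBP processing, Scap, the escort that carries SREBP to the Golgi, was higher in COL (9.58 ± 1.65 CPM in SI and 19.6 ± 3.93 in COL, SD, n = 4, edgeR adjusted p = 0.0133). Insig1 and Insig2, which hold SCAP back in the endoplasmic reticulum, stood in opposite directions. Insig1 was at 22.8 ± 7.79 CPM in SI and 53.7 ± 22.4 in COL, and Insig2 at 63.6 ± 30.8 in SI and 26.2 ± 13.4 in COL (SD, n = 4, edgeR adjusted p = 0.0236 and 0.0499). Insig1 lost its call without SI of mouse 1, SI of mouse 2 or COL of mouse 1 (edgeR adjusted p 0.0547 to 0.0851), and Insig2 without SI of mouse 1 or 5 or COL of mouse 1 or 2 (0.0871 to 0.146) and under a block for donor mouse (0.0506). In the libraries of low mitochondrial share alone Insig1 had a log2 fold change of -0.68 (edgeR adjusted p = 0.122), and in those of high share alone Insig1 and Scap had -1.78 and -1.07 (0.0532 and 0.115). With library size alone as the scaling the log2 fold change of Insig2 was 0.48 (edgeR adjusted p = 0.405). Insig2 also missed the threshold with RLE size factors, mitochondrial genes removed and at least 10 counts in every library (edgeR adjusted p 0.0527, 0.0547 and 0.0507). Srebf1 and the proteases Mbtps1 and Mbtps2 did not pass, with log2 fold changes from -0.14 to 0.39, and the median of the 6 was -0.10, or -0.88 with library size alone.

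The list of sterol uptake had 8 genes with a median log2 fold change of 0.20, which was -0.54 with library size alone as the scaling. Npc1l1, the transporter that takes up cholesterol from the gut lumen, was at 1272 ± 376 CPM in SI and 1.499 ± 1.49 in COL (SD, n = 4), a log2 fold change of 9.69 (edgeR adjusted p = 4.41e-05). Lipa, the lysosomal acid lipase, was also higher in SI, by 2.43 (edgeR adjusted p = 0.00588), and Lrp8, a lipoprotein receptor, was higher in COL at low levels (0.513 ± 0.634 CPM in SI and 3.33 ± 2.91 in COL, SD, n = 4, edgeR adjusted p = 0.0421). Lrp8 lost its call without SI of mouse 1, 3 or 5 or COL of mouse 1 (edgeR adjusted p 0.0842 to 0.189), with a log2 fold change of -1.88 without COL of mouse 1 and of -2.72 with all libraries. It also lost it in the libraries of high mitochondrial share alone (0.1397). The 5 others, Mylip, Scarb1, Npc1, Npc2 and Stard4, did not pass.

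Genes of sterol export, esterification and the sterol sensors LXR moved mostly against the members. Of 9 tested of 10 (Ch25h had at most 10 counts in any library), 6 were higher in SI, 1 was higher in COL and 2 did not pass, with a median log2 fold change of 3.03. Abcg5 and Abcg8, the paired exporter that returns sterols to the lumen, were at 351 ± 52.6 and 413 ± 141 CPM in SI and at 2.39 ± 1.62 and 1.38 ± 0.768 in COL (SD, n = 4, edgeR adjusted p = 1.45e-05 and 8.57e-06). Soat2, which esterifies absorbed cholesterol, had a log2 fold change of 7.99, Abca1, the exporter to HDL, of 3.89, Nr1h3, which codes for LXR alpha, of 3.03, and Cyp27a1, which hydroxylates the cholesterol side chain, of 2.89, with edgeR adjusted p of at most 0.000719. Soat1, the other esterifying enzyme, stood at 16.2 ± 10.7 CPM in SI and at 55.0 ± 3.87 in COL (SD, n = 4, edgeR adjusted p = 0.0121, or 0.0740 in the libraries of high mitochondrial share alone). These SI levels stood beside enterocyte sums of 48764 CPM or more, and the part of enterocytes in them was not tested.

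Of 9 genes of fatty acid synthesis, the sister pathway driven by SREBP1, 7 were higher in COL, none was higher in SI and 2 did not pass, with a median log2 fold change of -2.12. Fasn, fatty acid synthase, was at 19.2 ± 9.59 CPM in SI and 122 ± 15.6 in COL, and Acly, which supplies cytosolic acetyl-CoA to both pathways, at 41.3 ± 1.38 and 220 ± 67.1 (SD, n = 4, edgeR adjusted p = 0.000508 and 0.000146). The desaturases Scd1 and Scd2 had log2 fold changes of -4.11 and -4.94, Acss2 of -2.12, Acaca of -1.49 and Fads2 of -1.63. Fads2, whose edgeR adjusted p was 0.0475, rose above 0.05 without any 1 library other than SI of mouse 1 and SI of mouse 3 (0.0515 to 0.103). Elovl6 and Fads1 did not pass. In the libraries of high mitochondrial share alone Fads2, Scd1 and Acaca lost their calls, with log2 fold changes of -0.72, -2.70 and -1.37 and edgeR adjusted p of 0.324, 0.0520 and 0.0605. In those of low share alone Fads2 lost its call, at -2.63 (0.0638). Fads2 also lost it with the mitochondrial share as a covariate, at -1.63 (edgeR adjusted p = 0.0517).

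The branches that lead from farnesyl diphosphate to ubiquinone, dolichol and prenylated proteins showed no called difference. Of 10 genes, edgeR, DESeq2 and limma-voom each called 0, and 1, Icmt, had an unadjusted p below 0.05 (log2 fold change 0.80). Their log2 fold changes ran from -0.72 to 0.80 with a median of 0.08, and their summed CPM was 183 to 222 in SI and 163 to 211 in COL.

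**Figure D4:**
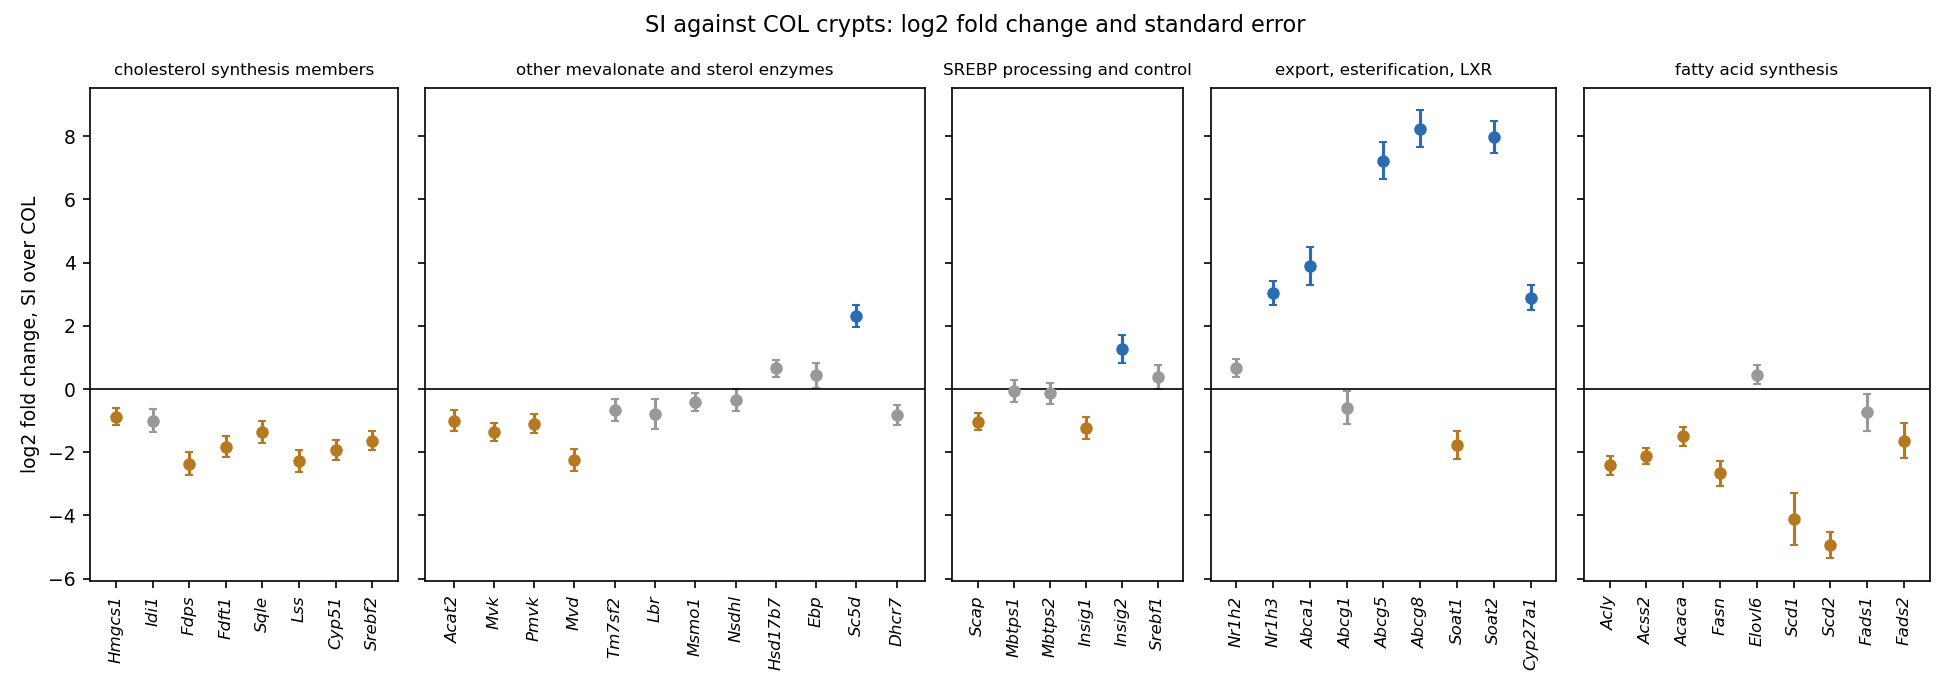
log2 fold change of SI over COL (points, with bars of ± 1 SE) for the members and the tested genes of 4 further lists, blue where higher in SI, ochre where higher in COL and grey where the edgeR adjusted p missed 0.05. The 7 called members and 7 fatty acid synthesis genes lie below 0, and 6 export and esterification genes lie above it.

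Across the 8 libraries, Pearson correlations of log2 CPM between member pairs ran from 0.718 to 0.986 with a median of 0.928, and after each tissue was centred on its mean from -0.115 to 0.921 with a median of 0.718. After centring, Fdps had r from -0.115 to 0.342 with every other member except Hmgcs1, with which it was 0.718. Fdps had only 20 to 26 reads per SI library, and the part of counting noise in these values was not tested. The points share library, depth and scaling. Of 7799 other genes with a mean of at least 3 on the log2 CPM scale, those most like the members' mean standardized profile were Maged1 (r = 0.993), Capg (0.992), Sh3bgrl2 (0.990), Pygb (0.990) and Slc25a35 (0.990), and 383 genes had r above 0.9. With each tissue centred they were Gmds (r = 0.986), Nob1 (0.979), Maged1 (0.976), Gyg (0.974) and Eef1d (0.971), and 83 genes had r above 0.9.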

How the data were processed

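The authors isolated crypts with EDTA, sequenced paired-end reads on a HiSeq4000, trimmed them with Trimmomatic 0.36 and aligned them to mm10 with STAR 2.5.2b, per the labels and the submitters' processing notes, which also name mm9. The deposited values are whole-number counts per Ensembl gene, not normalized. The annotation release and the strand setting are not given in the sources used here. Gene symbols (45143 of 45706) and loci came from GENCODE vM21, promoters from RefSeq.

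In R 4.3.3, counts were fitted with edgeR 4.0.16 (glmQLFit, glmQLFTest) with tissue as the only term, TMM scaling, filterByExpr by tissue (at least 10 counts in 4 libraries of median size, 15 in all) and Benjamini-Hochberg adjustment over the 14491 genes tested. The SE was derived from the coefficient and the F statistic. CPM are counts scaled by the TMM-adjusted library size of the genes kept. TMM factors were 0.728 to 0.798 in SI and 1.01 to 1.45 in COL. The log2 CPM behind correlations had a prior count of 2. A shared stretch is 50 bases of a gene's longest transcript found in a transcript of another gene. Alternatives used limma 3.58.1 (limma-voom), DESeq2 1.42.0, other scalings and filters, and the donor mouse as a block. The SI and COL libraries of a number come from the same mouse per the labels, and the correlations of their deviations from the tissue means were -0.240, 0.393, -0.0786 and 0.327 for mice 1, 2, 3 and 5. The fits were also run on simulated counts, drawn without effects of donor mouse or mitochondrial share. That run therefore does not test the calls reported here.

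Members, gene lists and the rule for named genes (all members, each listed gene that passed, and the 5 most like profiles) were chosen with earlier results of these data known. A few listed genes are not reported here.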

Additional observations from a re-analysis of the deposited data

How the results depend on the processing

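The number of members called was 7 with the reported fit and 8 with library size alone, RLE size factors, mitochondrial genes removed, DESeq2, at least 10 counts in every library, and the libraries of low mitochondrial share alone. It was 7 with limma-voom, without a filter, with the mitochondrial share as a covariate and with limma-voom and the donor mouse as a block, 6 with edgeR and the block, and 6 to 8 when 1 library was left out. Without a filter and with limma-voom and the block, the 7 held Idi1 in place of Hmgcs1. The share of all tested genes called moved too. It was 28.4% with the reported fit, 40.7% with library size alone, 28.8% with RLE and 29.1% with mitochondrial genes removed. DESeq2 called 35.3%, the minimum of 10 counts 30.1%, limma-voom 32.4% and the fit without a filter 13.7%. With the mitochondrial covariate it was 38.1%, with limma-voom and the block 32.5% and with edgeR and the block 28.1%. In the libraries of high mitochondrial share alone, a set added after the shares were seen, 3 members and 2264 of all genes were called, against 7 and 4116. For the libraries of low share alone the number of all genes called is not given here, so the 8 members called there have no such share beside them. No fold change of a member turned in sign under any of these settings. Only Hmgcs1 lost its call under the block, with limma-voom and the block (adjusted p = 0.0547) and without a filter (0.136), and besides it Fdft1, Sqle and Srebf2 lost theirs only in the libraries of high mitochondrial share alone (0.0699, 0.370 and 0.0565). Under the block the calls of Acat2 and Insig2 were also lost, and it changed no other call of a named gene. The 4116 genes called became 3167 to 4480 when 1 library was left out and 4072 under the block. Scaling moved the split of all calls. With library size alone all genes had a median log2 fold change of -0.82, and 4788 genes were higher in COL and 1115 in SI, against 1863 and 2253 with TMM. The median of the members was then -2.50, and that of the isoprenoid branches -0.70 with 3 of 10 called. The interaction with sex called 0 members under every alternative run. Depth limits Fdps in SI, at 20 to 26 reads per library.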
